A study of Mus musculus with 6 samples.

Results

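The genes described here are 37 chaperones, disulfide-forming enzymes, stress sensors and degradation factors of the endoplasmic reticulum (ER), the compartment in which secreted proteins fold. They were chosen by name as members of the ER folding machinery and of the unfolded protein response, 37 of the 56953 genes in the count table, and all 37 passed the filter on low counts that left 14738 genes to be tested. RNA was sequenced from mouse pancreatic acini, the clusters of cells that secrete digestive enzymes, on day 3 of an explant culture in which acini turn into duct-like structures (acinar-to-ductal metaplasia, ADM). There were 2 libraries of WT acini, labelled 10 and 11 weeks of age, 2 of acini from Dkk3 knockout mice (DD), labelled 12 and 13 weeks, and 2 of DD acini given recombinant DKK3 (DD + rDKK3), labelled 14 and 15 weeks. WT replicate 2 was labelled female and the other libraries male. All cultures shared Waymouth medium with serum, trypsin inhibitor and dexamethasone, a glucocorticoid. The knockout is present in every cell of the animal and removes exon 2 of Dkk3, which encodes the signal for secretion, so a count over the whole gene cannot show it. Labelled age and group cannot be told apart. The labelled ages rise by an equal step from library to library in the order given, and the labels do not show whether they are the true ages. No label names the animals or cultures, although labelled age differs between all libraries and labelled sex between the WT libraries. Titles of treated and untreated DD libraries of the same number share a code. The p-values measure only the spread between these samples, which may be in part technical.

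The ER of the acinar cell folds one of the largest loads of secreted protein in the body. When unfolded protein accumulates, IRE1 (Ern1), PERK (Eif2ak3) and ATF6 (Atf6) in the ER membrane signal to the nucleus: IRE1 splices the Xbp1 message into one that encodes an active transcription factor, PERK phosphorylates the initiation factor eIF2α and so favours translation of Atf4, and ATF6 is released by cleavage in the Golgi. The factors that result switch on chaperones, oxidoreductases and the machinery that returns misfolded protein to the cytosol for destruction. Gene counts record messenger abundance, and show neither Xbp1 splicing nor the phosphorylation, cleavage or translation steps.

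Many of these genes are known to be controlled through a shared promoter sequence, the ER stress response element (ERSE), spelled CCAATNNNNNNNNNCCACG, which is shown here because it links the chaperones to the sensors. The promoter table from RefSeq (build GRCm38.p6, another build than that of the counts), with windows of 300 bases around each start, matched 31 of the 37 members by symbol. Derl1, Sil1, Atf6, Manf, Hyou1 and Ppp1r15b were not matched. Searched on both strands, the element lay in the promoters of 10 of the 31 members (32.3%), beside 37 of 27025 genes in the whole table (0.137%). A match of letters is a description and not a measured binding site. The 11 matches are written below 5′ to 3′ in the direction of transcription, with 10 bases on each side and the fixed letters of the element, or of its reverse complement, in capitals.
Hspa5: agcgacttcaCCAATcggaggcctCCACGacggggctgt
Hsp90b1, upstream match: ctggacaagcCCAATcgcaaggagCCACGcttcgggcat
Hsp90b1, downstream match: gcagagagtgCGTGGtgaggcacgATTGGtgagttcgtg
Calr: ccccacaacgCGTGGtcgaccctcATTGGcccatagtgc
Canx: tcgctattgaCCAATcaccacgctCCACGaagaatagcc
Creld2: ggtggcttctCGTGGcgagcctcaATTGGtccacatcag
Dnajc3: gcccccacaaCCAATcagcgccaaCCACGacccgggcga
Pdia6: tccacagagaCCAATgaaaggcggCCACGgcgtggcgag
Ero1b: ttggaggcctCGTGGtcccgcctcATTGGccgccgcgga
Derl3: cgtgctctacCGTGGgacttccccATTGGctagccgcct
Syvn1: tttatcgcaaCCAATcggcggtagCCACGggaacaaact

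On the plus strand these windows lay at chr2:34772015-34772053 for Hspa5, chr15:88819510-88819548 for Creld2, chr14:118937817-118937855 for Dnajc3, chr12:17266481-17266519 for Pdia6, chr13:12565672-12565710 for Ero1b, chr10:75893232-75893270 for Derl3 and chr19:6046522-6046560 for Syvn1. On the minus strand they lay at chr10:86705628-86705666 and chr10:86705523-86705561 for Hsp90b1, chr8:84847065-84847103 for Calr and chr11:50325790-50325828 for Canx. Counted from the first transcribed base as 0, the element began nearest to the start in Syvn1 (-44) and Hspa5 (-65) and farthest from it in Hsp90b1 (-212) and Ero1b (-201). A related element, ERSE-II, spelled ATTGGNCCACG, was found in Herpud1 and Dnajb11 (6.45% of matched members, 0.0444% of all genes). The core of the XBP1-bound unfolded protein response element, TGACGTGG, was found in Txndc5 and Txndc11 (6.45% and 0.714%). These 4 matches are shown because none of those genes held the longer element.
Herpud1, chr8:94386367-94386397, plus strand: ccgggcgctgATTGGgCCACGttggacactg
Dnajb11, chr16:22857842-22857872, plus strand: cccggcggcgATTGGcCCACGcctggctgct
Txndc5, chr13:38528035-38528062, minus strand: gcctcgccgcTGACGTGGcgctagccgc
Txndc11, chr16:11134617-11134644, minus strand: gaagtgtggcTGACGTGGagagtccggg

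The whole 300-base window of Hspa5 (BiP, the main ER Hsp70 chaperone) at chr2:34771840-34772139, plus strand, is given as the best known of these promoters, with the element in capitals.
Hspa5 promoter: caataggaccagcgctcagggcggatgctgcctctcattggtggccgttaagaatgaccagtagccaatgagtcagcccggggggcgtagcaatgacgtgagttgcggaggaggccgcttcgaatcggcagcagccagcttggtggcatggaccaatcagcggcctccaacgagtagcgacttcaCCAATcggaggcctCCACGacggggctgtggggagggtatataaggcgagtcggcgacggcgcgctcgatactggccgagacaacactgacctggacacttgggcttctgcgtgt

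Libraries held 12018473 to 19750401 counts. Libraries are compared below as counts per 1000000 (CPM) after TMM scaling, a correction for the make-up of each library whose factor was 0.848 in WT replicate 1 and 0.990 to 1.07 in the others. The summed CPM of all 14 acinar markers, all of which were detected, was 116822 to 156016 in WT, 90028 to 102016 in DD and 95937 to 117910 in DD + rDKK3. This sum is led by abundant enzyme messages such as Ctrb1, and not every marker followed it. Ptf1a, an acinar transcription factor, was at 119 and 220 CPM in WT, 242 and 209 in DD, and 264 and 285 with rDKK3. Ductal markers (8 of 8 detected) summed to 1603 to 2530 CPM over the 6 libraries. Fibroblast markers summed to 34.1 to 133 CPM in 4 libraries, but to 682 in DD replicate 2 and 759 in DD + rDKK3 replicate 2, and macrophage markers to 57.1 to 110 and to 225 and 174 in the same libraries. Plasma and B cell markers, whose cells also carry much ER, were near 0 (0 of 6 passed the filter, with Ms4a1 at 0 counts throughout and Jchain at 50 counts in WT replicate 1). Endothelial (5 of 5) and islet (7 of 7) markers were at 66.5 to 120 and 152 to 284 CPM. Dkk3 itself was scarce, with 1 to 10 counts a library in WT, 9 to 11 in DD and 5 in each treated library.

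Per kilobase of transcript, the most abundant of the 37 messages was Xbp1, at 531 ± 101 CPM per kb (SD over the 6 libraries), followed by the disulfide isomerase P4hb at 422 ± 75.9, Hspa5 at 237 ± 35.1, the lectin chaperone calreticulin (Calr) at 215 ± 33.4 and Atf4 at 140 ± 26.6. In that order, neighbours overlapped over the 6 libraries, except that the lowest library of P4hb (339) lay above the highest of Hspa5 (281). The scarcest were Derl3, a derlin of secretory cells, at 2.12 ± 0.56 CPM per kb (35 to 75 counts a library) and Ern1 at 5.54 ± 1.00. In CPM, the highest library was under 2-fold of the lowest in 35 of the 37 genes and under 1.5-fold in 21, with the narrowest ranges in Dnajb11, Canx, Pdia4, Ppp1r15b and Dnajc3. Only Derl3 (2.09-fold) and Pdia2 (2.83-fold) ranged more widely. In all, the 37 genes made up 0.834% and 0.898% of all counts in the WT libraries, 0.873% and 0.861% in the DD libraries, and 0.951% and 0.890% with rDKK3.

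**Figure D1:**
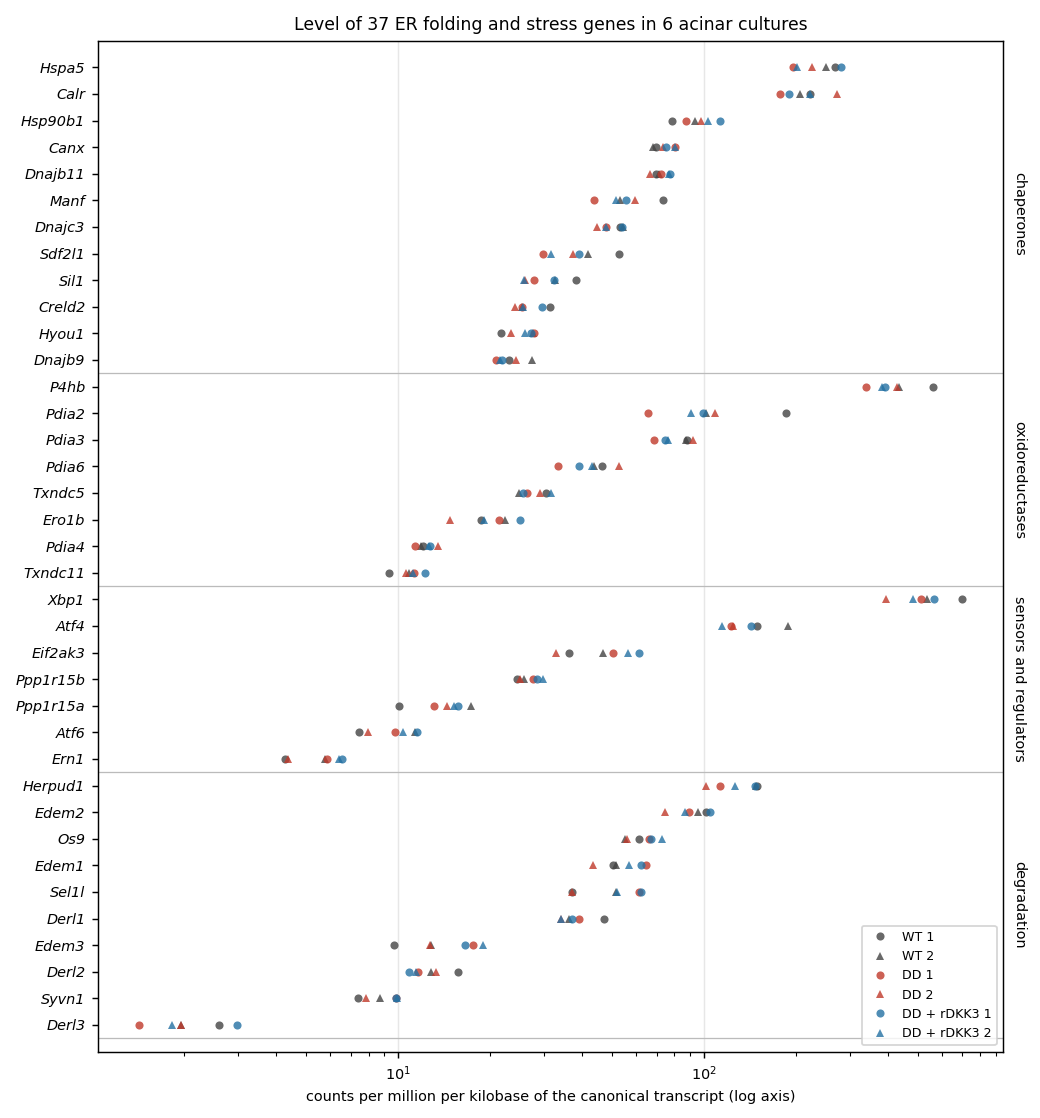
Level of each of the 37 genes in the 6 libraries, in CPM per kilobase of the canonical transcript on a log axis, grouped by role. Grey marks WT, red DD and blue DD + rDKK3, with circles for replicate 1 and triangles for replicate 2. Differences between genes, from 2.12 for Derl3 to 531 for Xbp1, are far wider than the spread of most genes over libraries.

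No member was called in DD against WT, the comparison that asks what loss of secreted DKK3 does, at an adjusted p under 0.05 in edgeR's quasi-likelihood test over all genes. The share called over all genes was 0.0407% (6 genes). The nearest were Herpud1, Sdf2l1, Atf4 and Sil1, the 4 members with an unadjusted p under 0.05 (8.26% of all genes), all 4 of them lower in DD, as were 3.99% of all genes. Of the 37 genes, 16 were higher and 21 lower in DD, and their median was -0.08 on the log2 scale, beside 0.02 over all genes. Both DD libraries lay below both WT libraries in 10 members (19.7% of all genes), namely Hspa5, P4hb, Dnajc3, Sdf2l1, Sil1, Herpud1, Xbp1, Atf4, Edem2 and Derl3. For Derl3 the groups all but touched, at 2.587 CPM in DD replicate 2 and 2.599 in WT replicate 2. Only Canx lay above (18.1% of all genes). With library size as the scaling in place of TMM, the median became 0.10 and 25 of the 37 genes were higher, while the median over all genes became 0.22, so the members' position below other genes was kept and their direction was not.

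In DD + rDKK3 against DD, which asks what the added protein does to null acini, no member was called by edgeR, as for all genes (0.0%), and none had an unadjusted p under 0.05 (1.98% of all genes). The direction was more uniform than the size. Of the 37 genes, 31 were higher with rDKK3 and 6 lower, beside 49.5% higher over all genes, and the median was 0.14 against -0.003. The genes were measured in the same libraries and share regulators, so these 31 are not independent results. Both DD + rDKK3 libraries lay above both DD libraries in 10 members (15.1% of all genes), Hsp90b1, Dnajb11, Creld2, Herpud1, Atf6, Ern1, Eif2ak3, Os9, Ppp1r15a and Ppp1r15b. Only Derl2 lay below (14.4% of all genes). Without DD + rDKK3 replicate 1 the median was 0.06, and without replicate 2 it was 0.18.

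In DD + rDKK3 against WT, which asks how treated null acini compare with normal ones, no member was called either (0.0475% of all genes, 7 genes). One, Edem3, had an unadjusted p under 0.05 (15.3% of all genes) and was higher, as were 7.34% of all genes. The members were evenly divided, 19 higher and 18 lower, with a median of 0.05 beside 0.02 over all genes. Libraries did not overlap in 13 members that were higher (27.9% of all genes) and 10 that were lower (27.1%). The DD libraries enter the comparisons with WT and with treated DD, and the WT libraries both comparisons with WT, so these values are not independent of each other.

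Other count tools gave the same number of calls among the members. DESeq2 called 0 members in each comparison, and 0.513%, 0.185% and 0.975% of the genes for which it gave an adjusted p, in the order above. At an unadjusted p under 0.05 it had 5, 2 and 3 members, beside 1104, 248 and 2149 of 26506 genes. The 26506 include genes of few counts that the filter of the main fit removed. All members passed that filter, so the shares are not like for like. Limma-voom called 0 members, and 0.0543%, 0.0% and 0.0204% of genes. It had 3, 0 and 1 members at an unadjusted p under 0.05, beside 1077, 320 and 2111 of 14738 genes. The width of the intervals says what could be seen with 2 libraries a group. The 95% interval of the log2 fold change reached a median of 0.44 to either side, and it lay wholly within a 2-fold change up or down for 35 members in DD against WT, for 35 in DD + rDKK3 against DD and for 33 in DD + rDKK3 against WT. Within 1.41-fold, it lay for 8, 8 and 6 members. Thus, a change of 2-fold or more lay outside the interval for most of these genes, whereas smaller ones were not resolved.

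**Figure D2:**
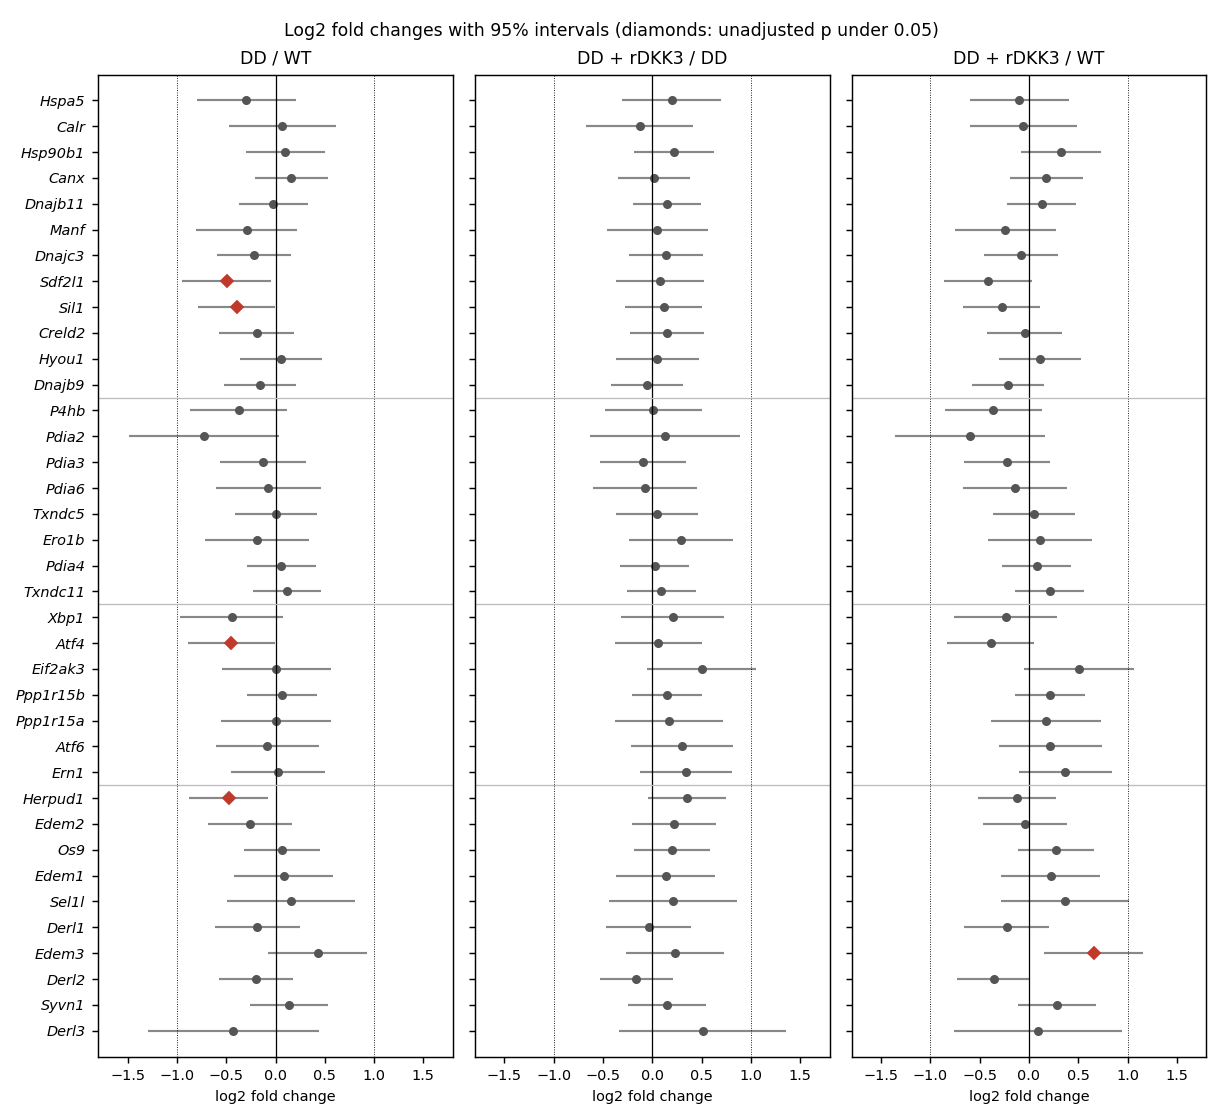
Log2 fold change of each of the 37 genes (point) with its 95% interval from edgeR (line) in the 3 comparisons, by role as in the plot of levels; dotted lines mark a 2-fold change. Red diamonds are the 4 members in DD against WT and the 1 member in DD + rDKK3 against WT with an unadjusted p under 0.05, none of which passed adjustment over all genes.

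Among the sensors and their factors, Xbp1 (chr11:5470659-5475893 in GRCm39, as for all gene positions below, plus strand) had the highest level. It stood at 1376 and 1055 CPM in WT, 1010 and 775 in DD, and 1115 and 947 with rDKK3. Both DD libraries were below both WT libraries, and the treated libraries overlapped with each of the other groups. On the log2 scale DD differed from WT by -0.45 ± 0.22 (SE, adjusted p = 0.586 by edgeR), treated from untreated DD by 0.21 ± 0.22 (adjusted p = 1.00) and treated DD from WT by -0.24 ± 0.22 (adjusted p = 0.590). With 1 library left out at a time, these ran from -0.62 to -0.23, from 0.03 to 0.39 and from -0.42 to -0.01. Their lowest sizes came without WT replicate 1 in both comparisons with WT and without DD replicate 2 for treated against untreated DD.

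Atf4, the factor that PERK signalling induces and that drives amino acid and stress genes, was at 260 and 327 CPM in WT, 213 and 217 in DD, and 248 and 200 with rDKK3. All 4 null libraries, treated or not, lay below both WT libraries. Against WT the log2 fold change was -0.45 ± 0.19 in DD (adjusted p = 0.586, edgeR) and -0.39 ± 0.19 in DD + rDKK3 (adjusted p = 0.349), and between the null groups it was 0.06.

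Eif2ak3, the sensor PERK (chr6:70821499-70882229, plus strand), showed the lowest p of the members in DD + rDKK3 against DD. It was at 164 and 213 CPM in WT, 229 and 150 in DD, and 279 and 257 with rDKK3. Both treated libraries were above the other 4, while DD and WT overlapped, with the DD libraries on either side of WT. Treated acini differed on the log2 scale by 0.50 ± 0.24 from DD (adjusted p = 1.00, edgeR) and by 0.51 ± 0.24 from WT (adjusted p = 0.340). The difference from DD was 0.81 without DD replicate 1 and 0.23 without DD replicate 2. Between DD and WT the difference was 0.006.

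Ern1, the sensor IRE1, followed a like order at a much lower level. It stood at 29.9 and 40.5 CPM in WT, 41.0 and 30.6 in DD, and 46.0 and 45.0 with rDKK3. Again both treated libraries were highest and the untreated groups overlapped. Its log2 fold change was 0.34 ± 0.20 against DD (adjusted p = 1.00, edgeR).

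The sensor Atf6, which is cleaved to give a transcription factor, was at 56.0 and 85.8 CPM in WT, 73.7 and 60.3 in DD, and 86.8 and 78.3 with rDKK3. Treated libraries lay above both DD libraries and overlapped with WT, whose libraries were farther apart than the groups. The difference from DD was 0.30 ± 0.22 on the log2 scale (adjusted p = 1.00, edgeR). Ppp1r15a and Ppp1r15b, the subunits that direct a phosphatase to eIF2α and so end the PERK signal, were at 23.5 to 40.3 and 137 to 166 CPM. All 7 genes of this group had a higher mean in DD + rDKK3 than in DD, by 0.06 to 0.50, with no overlap in 5 (15.1% of all genes). With 1 library left out at a time, Atf4 ran from -0.12 to 0.20 in that comparison, so its direction was not kept. In this group 4 of the 7 were higher in DD than in WT. None passed the test. Atf6, Ern1, Ppp1r15b and Eif2ak3 have transcripts of 4555 to 7541 bases, and Xbp1, Atf4 and Ppp1r15a have transcripts of 1741 to 2333 bases. Libraries also differed by transcript length, as described below, and the part of length in the values of these genes was not tested.

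Of the chaperones, Hspa5 (chr2:34661982-34667559, plus strand) holds unfolded chains and keeps the sensors inactive. It was at 1324 and 1237 CPM in WT, 967 and 1120 in DD, and 1394 and 998 with rDKK3. DD libraries were below WT libraries. The treated libraries were far apart, replicate 1 the highest of all 6 and replicate 2 among the DD values. DD differed from WT by -0.29 ± 0.22 (log2, adjusted p = 0.630, edgeR), treated from untreated DD by 0.20 ± 0.22 (adjusted p = 1.00) and treated DD from WT by -0.10 ± 0.22 (adjusted p = 0.828). Treated against untreated DD became -0.08 without DD + rDKK3 replicate 1. Treated DD against WT became 0.12 without DD + rDKK3 replicate 2 and 0.07 with library size as the scaling.

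Sdf2l1, a partner of Hspa5 and its J proteins, was at 58.8 and 46.6 CPM in WT, 33.2 and 41.5 in DD, and 43.5 and 35.3 with rDKK3. All 4 null libraries lay below the WT libraries. Relative to WT the log2 fold change was -0.50 ± 0.19 in DD (adjusted p = 0.586, edgeR) and -0.42 ± 0.19 in DD + rDKK3 (adjusted p = 0.336).

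Sil1, which exchanges the nucleotide bound to Hspa5, had 67.8 and 58.0 CPM in WT, 49.4 and 46.3 in DD, and 57.7 and 46.2 with rDKK3. The null libraries were again all below WT, although the higher treated library came within 1 CPM of the lower WT library. DD differed from WT by -0.39 ± 0.17 on the log2 scale (adjusted p = 0.586, edgeR).

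Hsp90b1 (GRP94, the Hsp90 of the ER) differed from these in direction. Its values were 223 and 265 CPM in WT, 247 and 277 in DD, and 320 and 291 with rDKK3. Both treated libraries were above the other 4. Treated acini were 0.32 ± 0.17 above WT on the log2 scale (adjusted p = 0.375, edgeR).

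No other chaperone was among the members of lowest p. The lectin chaperones Calr and Canx, which hold glycoproteins during folding, spanned 405 to 623 and 259 to 307 CPM. The J proteins Dnajb9, Dnajb11 and Dnajc3, which pass substrates to Hspa5, spanned 51.5 to 67.4, 133 to 155 and 232 to 283 CPM. Hyou1, a large Hsp70 relative, spanned 96.7 to 124 CPM, and the secreted stress proteins Manf and Creld2 spanned 97.9 to 165 and 33.9 to 44.0. Over the 12 chaperones and cochaperones, 4 were higher in DD than in WT, 10 were higher in DD + rDKK3 than in DD and 4 were higher in DD + rDKK3 than in WT.

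The oxidoreductases form and rearrange disulfide bonds. Pdia2 (chr17:26414973-26418061, minus strand), the pancreatic member of the disulfide isomerase family, had the largest fold change of any of the 37 genes and the largest spread. It was at 320 and 174 CPM in WT, 113 and 186 in DD, and 171 and 156 with rDKK3. WT replicate 1 stood far above the other 5 libraries, and WT and DD overlapped. DD differed from WT by -0.72 ± 0.33 on the log2 scale (adjusted p = 0.586, edgeR), a value that ran from -1.13 to -0.20 with 1 library left out at a time.

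P4hb, the founding disulfide isomerase, was at 1273 to 1649 CPM in WT and at 998 to 1256 in the 4 null libraries, which all lay below WT. Relative to WT its log2 fold change was -0.37 in DD and -0.36 in DD + rDKK3. Ero1b, the oxidase that recharges these enzymes and is abundant in the pancreas, was at 80.1 and 95.5 CPM in WT, 91.3 and 63.1 in DD, and 107 and 82.1 with rDKK3. Its groups overlapped, and treated DD exceeded untreated DD by 0.29 ± 0.23 on the log2 scale (adjusted p = 1.00, edgeR). Pdia3, which works with the lectin chaperones, spanned 252 to 338 CPM, Pdia4 62.3 to 74.4 and Pdia6 111 to 176. The thioredoxin-domain proteins Txndc5 and Txndc11 spanned 70.7 to 89.9 and 29.3 to 38.5. Of the 8 oxidoreductases, 3 were higher in DD than in WT, 6 were higher in DD + rDKK3 than in DD and 4 were higher in DD + rDKK3 than in WT.

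ER-associated degradation carries misfolded proteins out of the ER to the proteasome. Herpud1 (chr8:95113066-95122005, plus strand), a membrane protein that assembles the export complex and is among the most stress-responsive genes of the pathway, had the lowest p of the members in DD against WT. Its level was 466 and 461 CPM in WT, 351 and 316 in DD, and 456 and 393 with rDKK3. The DD libraries lay below all 4 others, and the treated libraries lay just below WT without overlap. DD differed from WT by -0.48 ± 0.17 (log2, adjusted p = 0.586, edgeR), treated from untreated DD by 0.35 ± 0.17 (adjusted p = 1.00) and treated DD from WT by -0.12. With 1 library left out at a time, the DD against WT value ran from -0.53 to -0.40 and that of treated against untreated DD from 0.23 to 0.45.

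Edem3 (chr1:151631122-151697802, plus strand), which trims mannose from glycoproteins to mark them for disposal, had the lowest p in DD + rDKK3 against WT. It was at 64.8 and 85.2 CPM in WT, 117 and 84.7 in DD, and 110 and 126 with rDKK3. Treated libraries were above WT libraries, and the DD libraries overlapped with both groups. On the log2 scale this difference was 0.66 ± 0.22 (adjusted p = 0.321, edgeR). With no filter on low counts Edem3 was called, at a log2 fold change of 0.70 (adjusted p = 0.0183), when 2.97% of all 26506 genes with an adjusted p were called. Its transcript, of 6678 bases, is among the longest of the members. Differences between libraries by transcript length are described below for sets of genes, and not for Edem3 by itself.

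Derl2, a channel protein of the same machinery, was at 66.3 and 54.1 CPM in WT, 48.9 and 55.8 in DD, and 45.5 and 48.2 with rDKK3. Treated libraries were the lowest of all. Relative to WT they differed by -0.36 ± 0.16 on the log2 scale (adjusted p = 0.333, edgeR). The related Derl3 was at 3.44 and 2.60 CPM in WT, 1.89 and 2.59 in DD, and 3.96 and 2.42 with rDKK3. Its treated libraries lay on both sides of WT, and the log2 fold change against DD was 0.51 ± 0.36 (adjusted p = 1.00, edgeR), on few counts.

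Among the remaining degradation genes, the mannosidase-like Edem1 and Edem2 spanned 261 to 388 and 256 to 358 CPM. Sel1l and Syvn1, which form the core ubiquitin ligase, spanned 235 to 396 and 25.6 to 34.3. Derl1 spanned 146 to 202 and Os9, a lectin that delivers glycoproteins to Sel1l, 132 to 175. Of the 10 degradation genes, 5 were higher in DD than in WT, 8 were higher in DD + rDKK3 than in DD and 6 were higher in DD + rDKK3 than in WT.

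**Figure D3:**
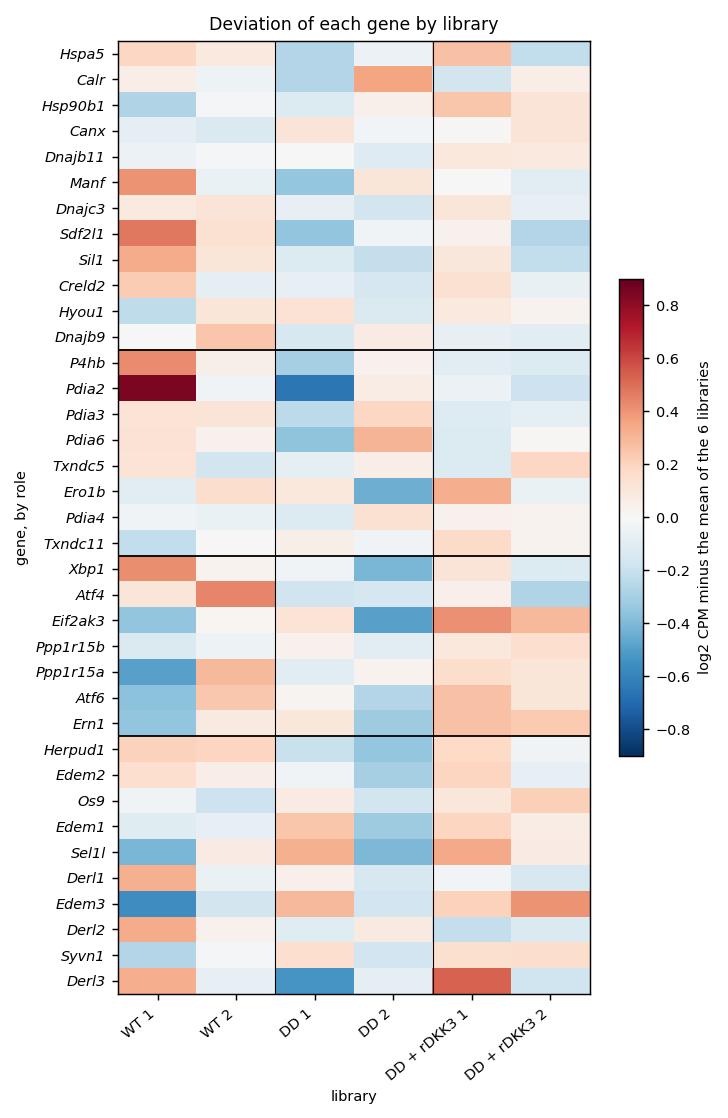
Deviation of each gene in each library from its mean over the 6 libraries, in log2 CPM (red higher, blue lower), with roles separated by horizontal lines and groups by vertical lines. DD replicate 1 is low in chaperones and oxidoreductases and DD replicate 2 in sensors and degradation genes, so the DD libraries are low in different genes.

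As a group, the 37 genes gave mean centred log2 CPM values of 0.03 and 0.04 in WT, -0.08 and -0.10 in DD, and 0.10 and 0.001 with rDKK3. The DD libraries were lowest. With library size as the scaling, the order was lost, since WT replicate 1 then stood at -0.20, below every other library. The DD libraries reached their low values through different genes. DD replicate 1 was the lowest library for 11 members, among them Hspa5, Calr, P4hb, Pdia2, Pdia3, Pdia4 and Pdia6, and DD replicate 2 for 9, among them Xbp1, Eif2ak3, Ero1b, Herpud1, Edem1 and Edem2. WT replicate 1 was the lowest for 10 others, among them Atf6, Ern1, Edem3, Sel1l and Hsp90b1, and the highest for 10 more. The mean over the oxidoreductases was -0.20 in DD replicate 1 and 0.04 in DD replicate 2, whereas that over the sensors was -0.003 and -0.24. Acinar marker sums, which Ptf1a did not follow, were lower in both DD libraries than in both WT libraries. Fibroblast markers were high in DD replicate 2 and DD + rDKK3 replicate 2 only. The part of either in these levels was not tested, and in bulk RNA fewer cells of a type and less RNA per cell cannot be told apart.

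Libraries also differed by transcript length. Over all genes tested that have a length, the median centred log2 CPM ran from 0.27 in the shortest of 5 length classes to -0.34 in the longest in WT replicate 1, and the opposite way in DD replicate 1 (-0.14 to 0.13), DD + rDKK3 replicate 1 (-0.11 to 0.12) and DD + rDKK3 replicate 2 (-0.13 to 0.17). WT replicate 2 (0.07 to -0.03) and DD replicate 2 (0.07 to -0.05) varied less. Over the 37 genes, which share their libraries, the correlation of log2 length with the deviation was -0.60 in WT replicate 1, 0.62 in DD replicate 1 and 0.52 in DD + rDKK3 replicate 2, and smaller in WT replicate 2 (-0.06), DD replicate 2 (-0.27) and DD + rDKK3 replicate 1 (0.20). Of the 18 shorter members (1113 to 3133 bases) 6 were higher in DD than in WT, with a median of -0.24, and of the 19 longer ones (3330 to 7541 bases) 10 were, with a median of 0.006.

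Removing the trend from each library, an alternative added after the data had been seen, gave medians of -0.16 and -0.09 for the shorter and longer members in DD against WT, with 7 and 3 higher. For treated against untreated DD, the medians were 0.12 and 0.15 before and 0.18 and 0.08 after, with 16 of 18 shorter members higher in both cases, and 15 and then 14 of the 19 longer ones. For treated DD against WT, medians of -0.09 and 0.11 became -0.02 and -0.02. The step takes out the trend on length over all genes, so a smaller gap between shorter and longer members was largely set in advance. No conclusion is drawn from it. By promoter element, the 10 members with an ERSE had medians of -0.13, 0.15 and 0.02 in the comparisons in the order used above, and the 21 matched members without one -0.02, 0.14 and 0.05.

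**Figure D4:**
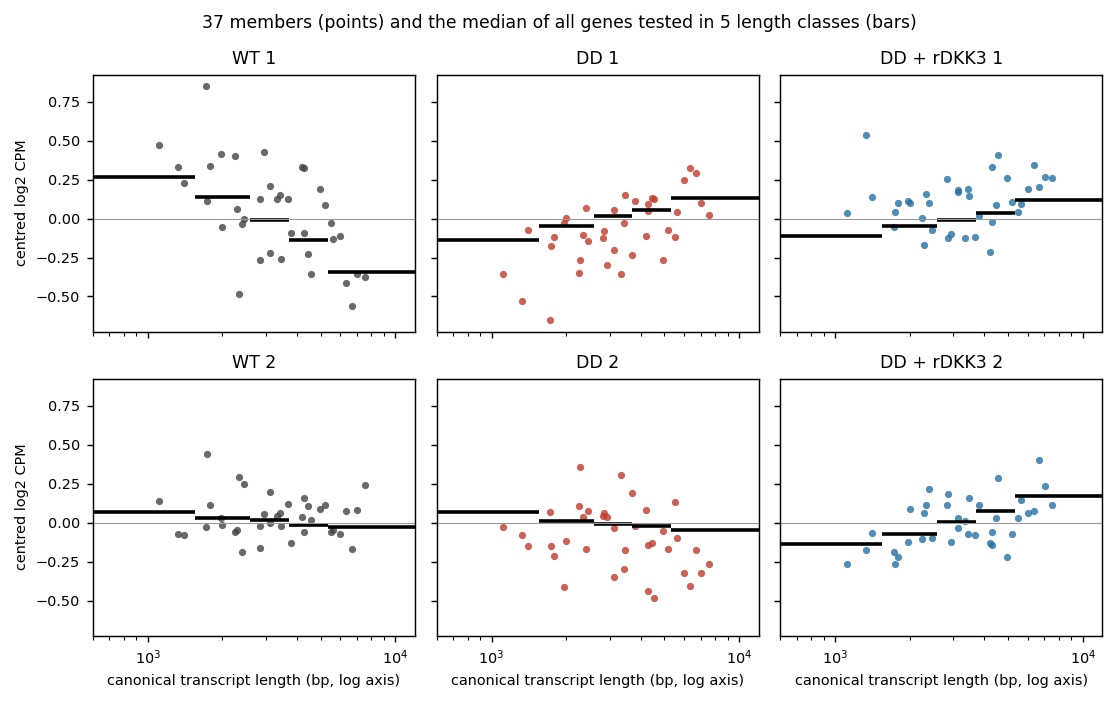
Centred log2 CPM of the 37 genes (points) against the length of their canonical transcript (log axis) in each library, with bars for the median of all genes tested in 5 length classes. Points and bars slope down in WT replicate 1 (r = -0.60 over the members) and up in DD replicate 1 (r = 0.62) and DD + rDKK3 replicate 2 (r = 0.52).

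Of 59 other genes of the same pathways, 58 were tested (Agr2 was not) and none was called in any comparison by edgeR. At an unadjusted p under 0.05 there were 6, 0 and 6 of the 58, beside 8.26%, 1.98% and 15.3% of all genes. The smallest p-values named below are therefore those of a list that did not stand out clearly by this count. Of these 58 genes, 24 had a higher level in DD than in WT and 34 a lower one (median -0.08). Treatment of DD gave 23 higher and 35 lower (median -0.03), beside 31 of 37 members higher. Treated DD against WT gave 18 higher and 40 lower (median -0.10).

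In DD against WT, the smallest p-values of this list belonged to Chac1, Atf3 and Trib3, all known to act downstream of PERK and Atf4. Chac1, which breaks down glutathione, was at 40.6 and 39.8 CPM in WT, 26.2 and 20.6 in DD, and 31.95 and 24.3 with rDKK3. All null libraries were below WT, and DD differed from WT by -0.78 ± 0.19 on the log2 scale (adjusted p = 0.557, edgeR). The transcription factor Atf3 was at 30.2 and 19.9 CPM in WT, 12.7 and 15.5 in DD, and 21.6 and 19.0 with rDKK3. Its DD libraries lay below all others, with a log2 fold change of -0.83 ± 0.23 against WT (adjusted p = 0.586) and 0.53 ± 0.23 for DD + rDKK3 against DD (adjusted p = 1.00).

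Trib3, a pseudokinase induced with Atf4 targets, stood at 51.6 and 45.1 CPM in WT, 35.0 and 25.2 in DD, and 36.5 and 30.0 with rDKK3. Treated and untreated null libraries overlapped and all lay below WT, and DD differed from WT by -0.68 ± 0.20 on the log2 scale (adjusted p = 0.586, edgeR). Nupr1, a stress-induced nuclear protein of the pancreas, was at 1652 and 1708 CPM in WT, 1056 and 1264 in DD, and 1852 and 1343 with rDKK3, where the treated libraries lay above DD and on both sides of WT. Treated DD exceeded untreated DD by 0.46 ± 0.22 on the log2 scale (adjusted p = 1.00, edgeR). The ER-bound transcription factor Creb3l1 differed by 0.34 ± 0.16 between treated and untreated DD (adjusted p = 1.00, edgeR). The related Creb3l2 was at 13.5 and 14.3 CPM in WT, 17.1 and 23.4 in DD, and 20.3 and 27.2 with rDKK3. Its null libraries all lay above WT, and treated and untreated DD overlapped. Relative to WT it differed by 0.54 ± 0.22 in DD and by 0.77 ± 0.22 in DD + rDKK3 (adjusted p = 0.321, edgeR), and between the null groups by 0.23 ± 0.22.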

How the data were processed

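Acini of 3 groups, with 2 libraries each, were sequenced on day 3. The authors deposited raw counts per gene, which had not been normalised. Per the labels and methods, stranded (dUTP) libraries were aligned with STAR 2.7.9a to GRCm39 and counted on the basic GENCODE annotation by the union mode of GenomicAlignments, and tested with DESeq2 1.38.0. The 92 spike-in rows held 0 counts and were left out. Here the counts were filtered (filterByExpr, at least 10 counts, 15 in total), scaled by TMM and fitted in edgeR 4.0.16 (quasi-likelihood test, group only, all 6 libraries), with p-values adjusted over 14738 genes by the Benjamini-Hochberg method. DESeq2 1.42.0, limma 3.58.1 (voom), other scalings and filters, libraries left out and a replicate block were alternatives. Log2 CPM carried a prior count of 2. Lengths were those of canonical transcripts. Fold changes are named for the 6 members of lowest p in each comparison, Hspa5 and Xbp1, with library values also for the sensors and Atf4; other values were chosen to complete a role. The members, lists and rules were chosen with earlier results of these data known. Each library's total, 12018473 to 19750401 counts, limits the precision of scarce genes.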

Additional observations from a re-analysis of the deposited data

How the results depend on the processing

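In DD against WT, the members' median of -0.08 was 0.10 with library size alone as the scaling, -0.034 with no filter on low counts, -0.11 with limma-voom, -0.10 with a replicate block over 6 libraries and -0.10 with the length trend removed, and it ran from -0.166 to -0.051 with 1 library left out. In DD + rDKK3 against DD, the median ran from 0.057 to 0.180 with 1 library left out. In DD + rDKK3 against WT, the median of 0.05 was 0.23 with library size alone, -0.00056 with at least 50 counts in 2 libraries and -0.022 with the length trend removed, and it ran from -0.085 to 0.087 with 1 library left out. With library size alone, the mean of the members was -0.20 in WT replicate 1, 0.022 in DD replicate 1, -0.031 in DD replicate 2 and 0.066 in DD + rDKK3 replicate 2. Hspa5 turned to 0.066 in DD + rDKK3 against WT under that scaling, and with 1 library left out it ran from -0.078 to 0.407 in DD + rDKK3 against DD and from -0.360 to 0.125 in DD + rDKK3 against WT. With no filter, 1 member (Edem3) was called in DD + rDKK3 against WT, and of the other pathway genes 2 in DD against WT (Atf3 and Chac1) and 2 in DD + rDKK3 against WT (Bhlha15 and Creb3l2). The cause of these shifts was not tested. In no other alternative was a member called. Calls over all genes numbered 6, 0 and 7 in edgeR and 78, 11 and 58 in DESeq2. With no filter edgeR called 528, 73 and 788 of 26506 genes, the background of the calls without a filter named above.

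Same-numbered DD and DD + rDKK3 libraries deviated together (r = 0.65 over 14738 genes), and their titles begin with a common code. Between WT and DD r was -0.39, and between WT and DD + rDKK3 it was -0.25. With 2 libraries a group, the sign of r depends on which library is numbered 1. WT titles share no code with the null ones, so values of this size arose without a shared code. The 0.65 is to be read beside them. No label names an animal, and whether same-numbered null libraries came from the same animal or culture was not tested. The main fit left such pairing out, so its p-values and intervals for DD + rDKK3 against DD do not allow for it. With the replicate block, over 6 libraries or within the null libraries, 0 members were called. Over all genes, the block within the null libraries called 194 of 14738 in DD + rDKK3 against DD, where the fit without it called 0, and the block over 6 libraries called 7, 0 and 5. The median in DD + rDKK3 against DD was 0.15 in both. With 2 libraries a group, changes well under 2-fold were resolved for few members, and scarce members such as Derl3 (35 to 75 counts) carry counting error on top of the spread between libraries.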
